A study of Mus musculus with 36 samples.

Results

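The 36 genes described here encode the enzymes and carriers of glycolysis together with classic targets of the hypoxia-inducible factor HIF1 and its alpha subunit, Hif1a. They were taken by name from a list of gene symbols, and all 36 were found among the 32285 mouse gene IDs of the deposited count table. The list holds 16 glycolytic enzymes, 2 carriers of glucose or lactate, 17 HIF1 targets and regulators, and Hif1a itself. RNA sequencing had been done on 36 libraries from AT-3 and E0771, a pair of mouse breast cancer cell lines that grow as tumours in C57BL/6 mice. The study asked about the transcription factor SRF, its actin-sensing partner MRTFA, and cellular potassium and calcium. Each line had 6 groups of 3 libraries, all treated for 24 h. The groups of a line were the DMSO control, KCl at 40 mM, the potassium channel openers NS11021 and BMS204352 at 10 µM each, and KCl combined with either opener at those same concentrations. NS11021 acts on the large-conductance calcium-activated (BK) channel, and BMS204352 on BK and on KCNQ channels. No genetic change is given for any group, and every group of a line is the parent line. There was no group with another salt or an osmolyte, so potassium, chloride and osmolarity cannot be told apart in the KCl groups. The labels do not say whether the KCl wells held DMSO, or whether the 3 libraries of a group came from separate cultures, so p-values measure only the spread between these samples.

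Glycolysis breaks glucose down to pyruvate in the cytosol. Tumour cells often turn the pyruvate into lactate and export it even when oxygen is present. HIF1 is a dimer of an oxygen-labile alpha subunit and a stable partner, ARNT. Prolyl hydroxylases of the EGLN family mark the alpha subunit for destruction when oxygen is plentiful, and in hypoxia it accumulates and binds short DNA elements near genes of glucose uptake, glycolysis, mitophagy, collagen modification and angiogenesis. Hif1a is regulated mostly as a protein, which RNA counts do not measure.

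The core of the HIF1 binding element is ACGTG or GCGTG, read on either strand, so that CACGT and CACGC on the printed strand are the same elements. The 250 bases before the RefSeq start of transcription (GRCm38.p6) were searched for it. At least 1 match was present in 31 of the 34 members that had such a window (91.2%), against 41.5% of all 27025 genes with windows. Counted by window, the shares were 43 of 55 (78.2%) for the members and 38.6% of 32851 for all genes. Gpi1, Tpi1 and Eno2 held no match in this window, and Bnip3l and Ndrg1 had no window. Matches on the 2 strands may overlap, as in the palindrome CACGTG. A match is a description of the letters and not evidence of binding. Part of the list was chosen as HIF1 targets, and the members were not matched to all genes for expression or base content. The difference between the shares was not tested. The windows of 7 members on which the results below turn are printed 5′ to 3′ on the gene's strand, with the matches in capitals. They are Slc2a1 (chr4:119108495-119108744, plus strand, 2 matches), Ldha (chr7:46845554-46845803, plus strand, 5 matches, 1 of its 2 windows), Ak4 (chr4:101419039-101419288, plus strand, 2 matches, 1 of its 4 windows), Bnip3 (chr7:138909507-138909756, minus strand, 5 matches), Egln1 (chr8:124949255-124949504, minus strand, 2 matches), Ankrd37 (chr8:45999851-46000100, minus strand, 4 matches) and Hif1a (chr12:73907617-73907866, plus strand, 3 matches).
Slc2a1: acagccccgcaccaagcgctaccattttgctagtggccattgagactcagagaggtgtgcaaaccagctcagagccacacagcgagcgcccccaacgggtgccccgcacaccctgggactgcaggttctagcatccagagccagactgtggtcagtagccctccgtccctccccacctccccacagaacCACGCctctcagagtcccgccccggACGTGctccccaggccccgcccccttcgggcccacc
Ldha: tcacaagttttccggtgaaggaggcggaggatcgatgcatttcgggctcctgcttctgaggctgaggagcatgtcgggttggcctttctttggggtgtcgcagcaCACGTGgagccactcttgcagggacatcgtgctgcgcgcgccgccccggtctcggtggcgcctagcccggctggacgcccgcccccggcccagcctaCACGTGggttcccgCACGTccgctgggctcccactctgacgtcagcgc
Ak4: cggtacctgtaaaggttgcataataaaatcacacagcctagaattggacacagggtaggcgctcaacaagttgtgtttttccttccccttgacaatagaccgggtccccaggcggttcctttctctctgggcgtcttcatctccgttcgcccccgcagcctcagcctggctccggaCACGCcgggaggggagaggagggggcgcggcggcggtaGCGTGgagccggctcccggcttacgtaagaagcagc
Bnip3: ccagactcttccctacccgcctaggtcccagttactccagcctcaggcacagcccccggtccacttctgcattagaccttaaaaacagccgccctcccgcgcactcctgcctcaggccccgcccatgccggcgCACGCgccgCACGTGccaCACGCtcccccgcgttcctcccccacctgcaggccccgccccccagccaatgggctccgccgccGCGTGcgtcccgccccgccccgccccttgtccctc
Egln1: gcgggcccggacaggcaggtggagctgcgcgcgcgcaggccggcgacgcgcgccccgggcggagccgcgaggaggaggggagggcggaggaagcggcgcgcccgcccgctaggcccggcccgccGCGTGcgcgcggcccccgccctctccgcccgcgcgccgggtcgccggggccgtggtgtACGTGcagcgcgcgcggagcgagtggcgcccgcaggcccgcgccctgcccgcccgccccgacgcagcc
Ankrd37: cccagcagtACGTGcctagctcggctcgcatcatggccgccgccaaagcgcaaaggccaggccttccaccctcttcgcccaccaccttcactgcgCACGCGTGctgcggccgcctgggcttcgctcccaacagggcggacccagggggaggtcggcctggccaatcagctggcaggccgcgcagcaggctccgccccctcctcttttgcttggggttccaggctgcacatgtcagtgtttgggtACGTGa
Hif1a: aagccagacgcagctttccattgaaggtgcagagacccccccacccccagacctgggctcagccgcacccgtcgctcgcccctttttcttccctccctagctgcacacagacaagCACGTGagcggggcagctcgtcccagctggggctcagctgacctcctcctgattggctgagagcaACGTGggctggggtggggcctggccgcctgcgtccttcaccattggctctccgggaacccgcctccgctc

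Library totals ran from 38.5 to 52.6 M counts in AT-3 and from 31.2 to 47.9 M in E0771, and levels are given as counts per M of that total (CPM), unless said to be per kilobase (kb) of exon. Of the epithelial markers, AT-3 held Epcam (median 137 CPM), Cdh1 (429 CPM) and Krt18 (32.3 CPM), while Krt8 was at 0.277 CPM and Krt19 at 0.585 CPM. E0771 had Krt8 at 182 CPM, while its Epcam was at 0.0549 CPM, its Cdh1 at 0.879 CPM and its medians of Krt18 and Krt19 at 0. E0771 also held the fibroblast-list genes Pdgfra (107 CPM) and Col1a1 (42.2 CPM), with Dcn, Lum and Thy1 at 0 in all 18 libraries. The leukocyte genes Ptprc and Cd3e were at 0 in all 18 AT-3 libraries, and Cd68 made up most of the leukocyte list. In bulk RNA, fewer cells that express a gene and less of its RNA per cell cannot be told apart.

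All 36 members passed the filter on low counts in both lines, and in DMSO the pathway stood higher in E0771. Levels per kb of exon used the joined length of all annotated exons of a gene. By that measure Gapdh, the glyceraldehyde phosphate dehydrogenase, led the members in both lines. It lay at 742 ± 4.16 CPM per kb in AT-3 and 1134 ± 21.3 in E0771 (mean ± SD, n = 3). The next places differed. In AT-3 the second was Pkm, the pyruvate kinase of the last step, at 599.9 ± 17.3 CPM per kb. In E0771 the second was Ldha, which turns pyruvate into lactate, at 750.0 ± 9.11 CPM per kb, against 233 ± 11.2 in AT-3. Of the 36 members, 29 were higher and 3 lower in E0771 than in AT-3 at an adjusted p below 0.05, where 34.1% and 40.4% of all 15969 genes tested passed in those directions. The members' median log2 difference was 0.83, against -0.09 over all genes.

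Slc16a3, the lactate exporter MCT4, showed the widest gap of any member between the lines, and its levels did not overlap. Its DMSO libraries lay at 0.424, 0.684 and 0.533 CPM in AT-3 and at 706, 710.1 and 707 CPM in E0771, a log2 difference of 10.33 ± 0.34 (adjusted p = 1.43e-19). Slc2a1, the glucose carrier GLUT1, lay at 54.5, 50.7 and 50.5 CPM in AT-3 and 177, 181 and 173 CPM in E0771 (log2 difference 1.77 ± 0.11 (adjusted p = 2.02e-14)). Every E0771 library was above every AT-3 library for both carriers. The same held for Ldha (log2 difference 1.69 ± 0.08), the hexokinase Hk2 (1.86 ± 0.09), the adenylate kinase Ak4 (4.29 ± 0.29), the prolyl hydroxylase Egln3 (4.78 ± 0.33), the mitophagy receptor Bnip3 (2.74 ± 0.31) and Hif1a (1.04 ± 0.06). The 3 members that were lower in E0771 were Pkm (-0.43 ± 0.04), the stress-response gene Ndrg1 (-1.30 ± 0.13) and Aldoc, an aldolase. Aldoc lay at 19.5, 27.7 and 19.5 CPM in AT-3 and at 0.146, 0.560 and 0 CPM in E0771. Egln1 (1.18), Pgk1 (0.65), Gapdh (0.61) and Pfkp (0.56) were also higher in E0771. Pfkm, Eno2, Car9 and Vegfa did not pass the test. Car9, a carbonic anhydrase often used as a hypoxia marker, stayed at or under 0.674 CPM in every AT-3 library and at or under 1.29 CPM in every E0771 library.

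**Figure D1:**
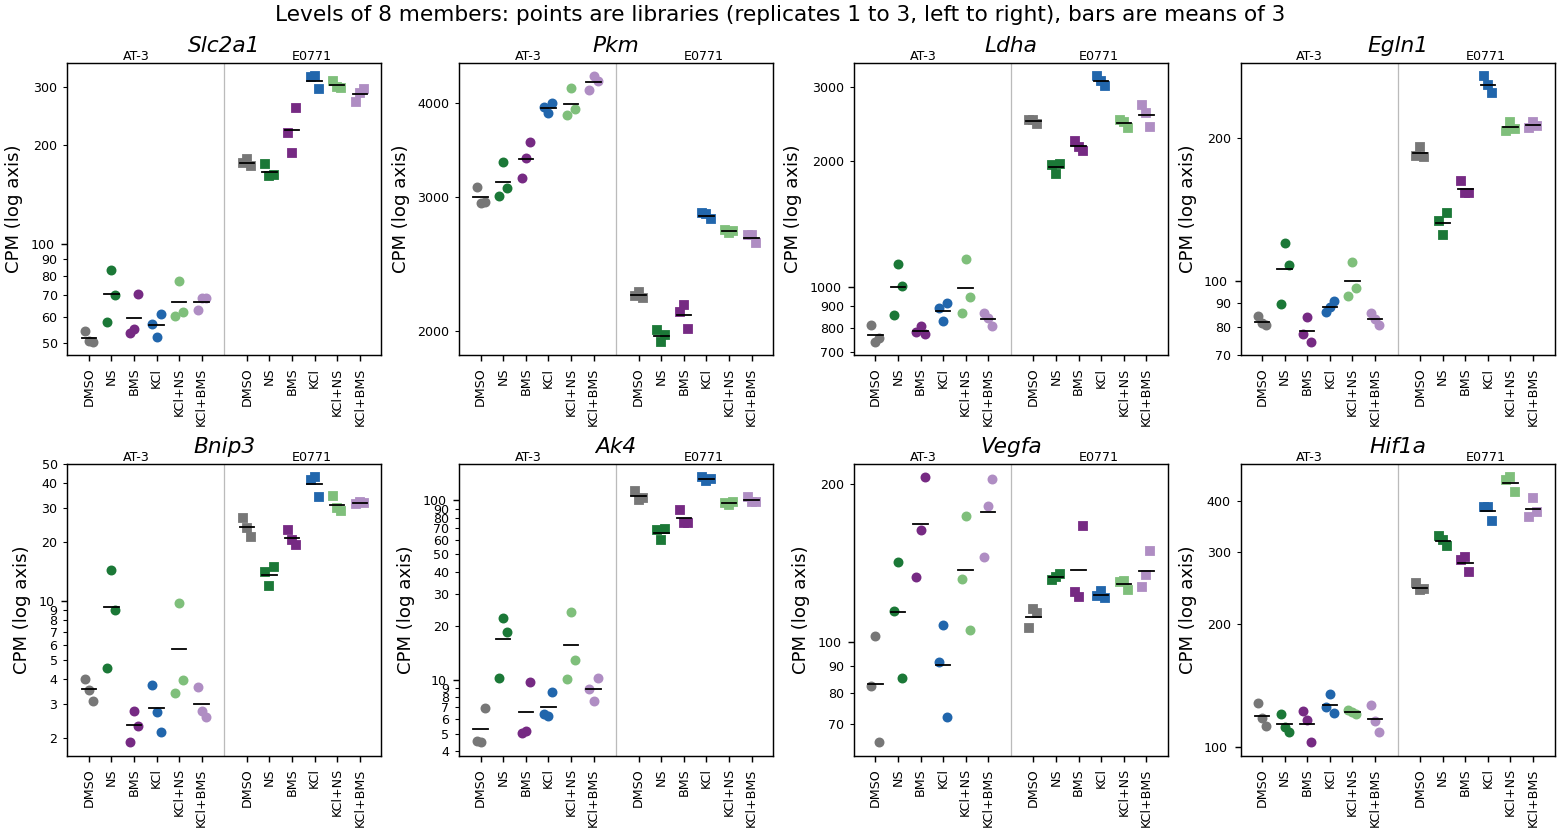
Levels of 8 members in all 12 groups, in CPM on a log axis. Points are single libraries and bars are means of 3; the E0771 levels of Ldha, Slc2a1, Egln1, Bnip3, Ak4 and Hif1a lie above those of AT-3, except that 2 E0771 libraries of Bnip3 with NS11021 lie below 1 AT-3 library with NS11021, while Pkm lies lower in E0771.

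KCl raised most of these genes in E0771. At an adjusted p below 0.05, 23 of 36 members rose and 2 fell, where 17.8% of all 13357 genes rose and 18.6% fell. The members' median log2 fold change was 0.24, against -0.01 over all genes. The libraries did not overlap and were all higher with KCl for 24 members (24% of all genes) and all lower for 2 members (26.7%). Together the 16 glycolytic enzymes took 1.78% ± 0.0277 of all counts in DMSO and 2.02% ± 0.0449 in KCl (mean ± SD, n = 3).

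Among the carriers, Slc2a1 rose from 177, 181 and 173 CPM in DMSO to 323, 324 and 297 CPM in KCl, a log2 fold change of 0.84 ± 0.08 (adjusted p = 2.74e-07), or 1.79-fold. Slc16a3, already abundant, lay at 774, 775 and 715 CPM, and its log2 fold change of 0.10 ± 0.05 (adjusted p = 0.0893) did not pass. The KCl and DMSO libraries of Slc2a1 were far apart. Those of Slc16a3 did not overlap either, with every KCl library the higher, but lay within a narrow range. At the entry to the pathway the hexokinases parted: Hk1 rose by 0.36 ± 0.04 on the log2 scale, while Hk2 went from 176, 162 and 174 CPM to 154, 157 and 145 CPM (-0.16 ± 0.06 (adjusted p = 0.0410)). The fall of Hk2 was lost in 9 of 14 alternative settings, with adjusted p up to 0.174. All 3 phosphofructokinases, which commit sugar to glycolysis, rose: Pfkp by 0.47 ± 0.04, Pfkm by 0.43 ± 0.06 and Pfkl by 0.25 ± 0.04.

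In the lower part of the pathway, from the aldolases to pyruvate kinase, 6 of 9 members rose and none of the 9 fell. Pkm rose from 2223, 2249 and 2210.4 CPM to 2859.9, 2848 and 2808 CPM (0.36 ± 0.03 (adjusted p = 2.41e-11)). Ldha rose from 2504, 2495 and 2448 CPM to 3174, 3092 and 3006 CPM (0.33 ± 0.04 (adjusted p = 1.93e-08)). The spread within each group was small beside these shifts, and no library of one group reached the other. Gapdh did not move with them, at 4728, 4746 and 4585 CPM in DMSO and 4739, 4550.3 and 4575 CPM in KCl (log2 fold change -0.01 ± 0.03 (adjusted p = 0.844)). Tpi1, Aldoa, Pgam1, Eno1 and Pgk1 rose by 0.12 to 0.29, and the DMSO and KCl libraries of Pgk1 overlapped. The bifunctional enzyme Pfkfb3, which makes the activator of phosphofructokinase, was the other member to fall, from 33.0, 35.2 and 36.6 CPM to 29.9, 25.3 and 29.3 CPM (-0.30 ± 0.07 (adjusted p = 0.00153)).

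Among the HIF1 targets, the mitophagy receptors and the adenylate kinase all rose with KCl. Bnip3 went from 26.4, 23.7 and 21.2 CPM to 41.2, 43.0 and 33.8 CPM (0.73 ± 0.10 (adjusted p = 2.89e-07)), Bnip3l rose by 0.59 ± 0.07 and Ak4 by 0.33 ± 0.06. Egln1, the main oxygen sensor of the prolyl hydroxylases, rose from 183, 191 and 182 CPM to 269, 258 and 248 CPM (0.49 ± 0.04 (adjusted p = 2.18e-10)). Its relative Egln3 lay at 90.0, 92.1 and 90.4 CPM and 97.0, 87.6 and 87.1 CPM (0.01 ± 0.05 (adjusted p = 0.942)), so the 2 hydroxylases did not share the call. The histone demethylase Kdm3a rose by 0.40 ± 0.05, the Myc antagonist Mxi1 by 0.57 ± 0.06, Ndrg1 by 0.58 ± 0.17 and the ankyrin-repeat gene Ankrd37 by 0.62 ± 0.20. The last 2 calls were each lost without 1 library, Ankrd37 without KCl replicate 2 and Ndrg1 without KCl replicate 1. Vegfa, the endothelial growth factor, gave 0.15 ± 0.09 (adjusted p = 0.216) and Car9 -0.49 ± 0.49 (adjusted p = 0.468). Hif1a had the smallest adjusted p of the members, rising from 251, 242 and 243 CPM to 387, 385 and 357 CPM (0.63 ± 0.05 (adjusted p = 2.43e-12)). With KCl the summed epithelial markers, nearly all Krt8 in this line, moved from between 202 and 207 CPM to between 157 and 166 CPM. The fibroblast list moved from between 174 and 193 CPM to between 140 and 146 CPM. The leukocyte list moved from between 4.83 and 5.32 CPM to between 2.72 and 3.70 CPM, and the endothelial list, mostly Pecam1, from between 0.661 and 1.02 CPM to between 2.01 and 4.34 CPM, with Emcn at 0 in all 18 E0771 libraries. Their part in these results was not tested.

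**Figure D2:**
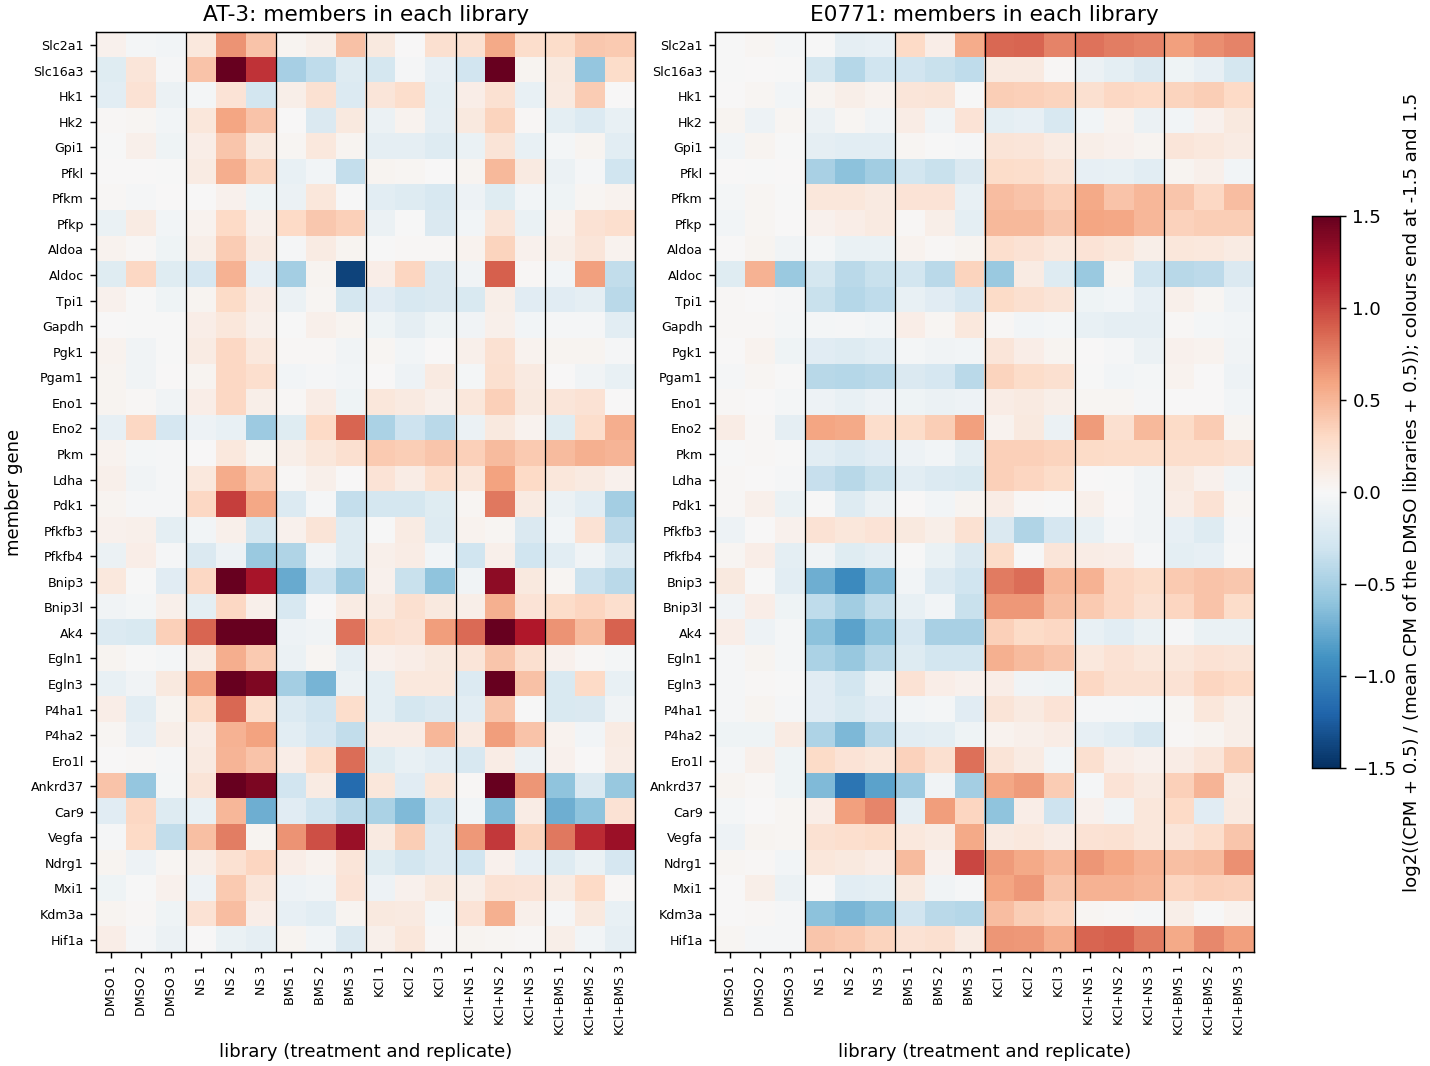
Each of the 36 members in each library, as log2 of (CPM + 0.5) over (the DMSO mean CPM of the same line + 0.5), coloured from -1.5 to 1.5. In E0771 the 3 libraries of a group look alike, with most members higher in KCl and lower in NS11021; in AT-3 the replicate 2 libraries of NS11021 and of KCl with NS11021 stand out as higher.

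NS11021 lowered the pathway in E0771. At an adjusted p below 0.05, 18 members fell and 4 rose, where 13.5% and 12.8% of all genes did. The median log2 fold change of the members was -0.14, against 0.00 over all genes. For 18 members every NS11021 library lay below every DMSO library (21.6% of all genes), and for 10 every library lay above (21.7%). The 16 glycolytic enzymes took 1.60% ± 0.0186 of counts (SD, n = 3), against the 1.78% in DMSO.

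The smallest adjusted p belonged to Pfkl, the liver-type phosphofructokinase, which went from 459, 454 and 459 CPM in DMSO to 326, 298 and 319 CPM in NS11021 (-0.54 ± 0.04 (adjusted p = 2.01e-10)). Pfkp and Pfkm did not pass (log2 fold changes 0.10 and 0.16). Below them, Tpi1 fell by 0.38, Pgam1 by 0.41 and Pkm by 0.18 on the log2 scale. Ldha fell from 2504, 2495 and 2448 CPM to 1958, 1860.2 and 1963 CPM (-0.37 ± 0.04 (adjusted p = 2.02e-08)). Gapdh (4604, 4621 and 4559 CPM), Slc2a1 (176, 161 and 162 CPM) and Hk2 did not pass, with log2 fold changes of -0.03, -0.09 and -0.03. Slc16a3, the lactate exporter, gave -0.33 ± 0.05 (adjusted p = 6.59e-06), and Pgk1 -0.18 ± 0.04. Eno2, the neuronal enolase, ran against the other enzymes at a low level, from 4.88, 4.53 and 4.04 CPM to 7.0, 6.87 and 5.49 CPM (0.52 ± 0.16 (adjusted p = 0.0162)).

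Most HIF1 targets fell as well. Kdm3a went from 111, 112 and 109 CPM to 71.9, 68.6 and 72.2 CPM (-0.64 ± 0.05 (adjusted p = 2.02e-10)). Ak4 went from 113, 100.3 and 103 CPM to 68.5, 60.3 and 69.3 CPM (-0.68 ± 0.06 (adjusted p = 3.53e-09)), and Bnip3 from 26.4, 23.7 and 21.2 CPM to 14.2, 12 and 14.9 CPM (-0.80 ± 0.10 (adjusted p = 7.43e-07)). None of these NS11021 libraries reached the DMSO range. Egln1 went from 183, 191 and 182 CPM to 134, 125 and 139 CPM (-0.49 ± 0.04 (adjusted p = 4.07e-09)), and P4ha2, a prolyl hydroxylase of collagen, gave -0.51 ± 0.06 (adjusted p = 2.04e-07). Ankrd37 had the largest log2 fold change of the members that passed, at 1.71, 1.13 and 1.5 CPM beside 3.10, 3.05 and 2.85 CPM in DMSO (-1.05 ± 0.22 (adjusted p = 0.000511)). In the opposite direction, Hif1a rose from 251, 242 and 243 CPM to 328, 321 and 309 CPM (0.38 ± 0.05 (adjusted p = 3.81e-07)), so the RNA of the subunit and of most of its listed targets moved apart. Car9 did not pass. Vegfa gave 0.25 ± 0.09 (adjusted p = 0.0447), a call lost whenever any 1 library was left out. Egln3, at -0.17, was lost in 2 of 14 settings. The summed leukocyte markers, nearly all Cd68, lay between 4.83 and 5.32 CPM in DMSO and between 14.3 and 15.5 CPM in NS11021, with Adgre1 at 0 in all 18 libraries. The fibroblast list lay between 151 and 156 CPM in NS11021, below its DMSO range. The epithelial list, nearly all Krt8, lay between 213 and 228 CPM, above its DMSO range. Their part in the result was not tested.

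Added to KCl, NS11021 again lowered these genes in E0771. Against KCl alone, 16 members fell and 4 rose, where 7.66% and 9.59% of all genes did, and the members' median log2 fold change was -0.09, against 0.01 over all genes. This comparison shares no library with that of NS11021 against DMSO, though both came from the same fit and its shared estimate of the spread. Of the members lowered by NS11021, 15 of 18 (83.3%) fell here too, which is 93.8% of the 16. The overlap of calls was not computed over all genes, so these shares have no background beside them. The 15 were Ak4, Bnip3, Bnip3l, Egln1, Eno1, Gpi1, Kdm3a, Ldha, P4ha1, P4ha2, Pfkl, Pgam1, Pgk1, Slc16a3 and Tpi1. Not all of these calls were stable. Against KCl, Gpi1 lost it in 6 of 14 alternative settings, Bnip3 in 4, Eno1 in 3, Pgk1 in 2 and Bnip3l in 1. Against DMSO, Eno1 lost it in 6 of 14. Ldha went from 3174, 3092 and 3006 CPM in KCl to 2497, 2470.0 and 2393 CPM (-0.33 ± 0.04 (adjusted p = 3.01e-07)), a range that overlaps the DMSO libraries given above. Pfkl went from 553, 549 and 523 CPM to 421, 422 and 409.7 CPM (-0.37 ± 0.04 (adjusted p = 2.62e-07)), and Ak4 from 135, 129 and 131 CPM to 97.2, 94.3 and 98.6 CPM (-0.44 ± 0.06 (adjusted p = 3.99e-06)). Egln1 gave -0.29 ± 0.04 (adjusted p = 1.83e-05), Gapdh -0.11 ± 0.03 (adjusted p = 0.0169) and Bnip3 -0.34 ± 0.09 (adjusted p = 0.0118), though the libraries of Bnip3 overlapped. Slc2a1 (-0.05), Pkm (-0.07), Pfkp (0.10), Hk2 (0.15) and Vegfa (0.07) did not pass, nor did Car9. Hif1a, Pfkfb3 and Eno2 rose in both settings, Hif1a to 448, 457 and 419 CPM (0.23 ± 0.05 (adjusted p = 0.000538)), its highest group of the 12. The calls of Eno2 were lost in 3 of 14 settings without KCl and 6 of 14 with it, and those of Pfkfb3 in 5 and 3. The leukocyte list lay between 6.91 and 7.99 CPM in KCl with NS11021, above its range in KCl, and its part was not tested. Leaving out replicate 3 of KCl with NS11021 reduced the 20 calls to 13.

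Egln3 was the 1 member whose NS11021 effect differed with and without KCl, out of 36 tested (0.195% of all genes passed upward and 0.0225% downward). It lay at 81.0, 75.2 and 85.7 CPM in NS11021, below DMSO, but at 113, 106 and 106 CPM in KCl with NS11021, above the 97.0, 87.6 and 87.1 CPM of KCl alone (0.26 ± 0.05 (adjusted p = 0.000852)). The log2 difference between the effects was 0.44 ± 0.08 (adjusted p = 0.00532), and without KCl replicate 2 the adjusted p was 0.0505.

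BMS204352 changed fewer of these genes in E0771, and in both directions. Against DMSO, 8 members rose and 9 fell, where 11.3% of all genes rose and 11.3% fell, and the median log2 fold change was -0.02, against 0.00 over all genes. The members that fell held Kdm3a (-0.37 ± 0.05 (adjusted p = 2.72e-06)), Ak4 (-0.40 ± 0.06 (adjusted p = 1.22e-05)), Slc16a3 (-0.33 ± 0.05 (adjusted p = 1.36e-05)) and Pfkl, which lay at 379, 361 and 392 CPM (-0.27 ± 0.04 (adjusted p = 1.61e-05)). Ldha, at 2228, 2152 and 2114 CPM, and Egln1, at 162, 153 and 153 CPM, fell by 0.19 and 0.25 on the log2 scale. No BMS204352 library of these 6 members reached the DMSO range. Those that rose included Slc2a1, Ndrg1, Ero1l (an oxidase of protein folding) and Hif1a. Slc2a1 lay at 218, 190.0 and 259.8 CPM (0.34 ± 0.08 (adjusted p = 0.00598)) and Hif1a at 286, 290.5 and 267 CPM (0.20 ± 0.05 (adjusted p = 0.00159)). Ndrg1 lay at 80.7, 60.8 and 116 CPM, and Ero1l at 154, 143 and 215 CPM beside 119, 128 and 116 CPM in DMSO. In Slc2a1, Ndrg1 and Ero1l the third library was the highest. Without replicate 3 of BMS204352 there were 15 calls (7 higher and 8 lower), and without DMSO replicate 3 there were 11. Bnip3 (-0.18), Pfkp (-0.01), Pgk1 (-0.04), Hk2 (0.10) and Egln3 (0.13) did not pass, nor did Car9. Pkm (fell by 0.08), Gapdh (0.10) and Vegfa (0.30) passed, each losing the call in 3 or more of 14 settings. The leukocyte list lay between 11.4 and 11.98 CPM in BMS204352, above its DMSO range, and the fibroblast list between 146 and 169 CPM, below it; their part was not tested.

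On top of KCl, BMS204352 lowered 14 members and raised 2, where 10.1% and 9.85% of all genes passed, with a median of -0.10 against 0.01 over all genes. All 9 members that BMS204352 lowered without KCl fell here too, which is 64.3% of the 14. They were Ak4, Egln1, Kdm3a, Ldha, Pfkl, Pgam1, Pkm, Slc16a3 and Tpi1. Without KCl the call of Pkm was lost in 8 of 14 settings. The overlap of calls was not computed over all genes here either. Ldha lay at 2720.4, 2602 and 2399.6 CPM (-0.27 ± 0.04 (adjusted p = 2.75e-06)), Kdm3a at 118, 110.0 and 115 CPM (-0.35 ± 0.05 (adjusted p = 4.51e-06)) and Egln1 at 209, 216 and 212 CPM (-0.29 ± 0.04 (adjusted p = 1.22e-05)). The KCl libraries of all 3 lay above these ranges. Bnip3 fell by 0.32. Pfkp (-0.11), Gapdh (-0.01), Pgk1 (-0.10), Vegfa (0.14) and Hif1a (0.01) did not pass. The 2 members that rose were Egln3 (0.27 ± 0.05) and Hk2 (0.22 ± 0.06), and none of the 8 raised without KCl was among them. Slc2a1 was the 1 member of 36 whose BMS204352 effect differed with and without KCl (0.569% of all genes passed upward and 1.06% downward). Its level was 271, 288 and 297 CPM in KCl with BMS204352, beside 323, 324 and 297 CPM in KCl, and the log2 difference between the effects was -0.49 ± 0.11 (adjusted p = 0.0408). That call was lost in 11 of 20 alternative settings. In KCl with BMS204352 the leukocyte list lay between 4.83 and 5.66 CPM, the fibroblast list between 154 and 161 CPM and the mitochondrial share between 0.789% and 1.03%, each above its range in KCl, and their part was not tested. Direct differences between the compounds were not tested.

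AT-3 answered KCl with 1 member. Pkm went from 3100.0, 2946 and 2954 CPM in DMSO to 3945, 3879 and 3999.5 CPM in KCl (0.40 ± 0.05 (adjusted p = 9.89e-05), 1.32-fold), with every KCl library above every DMSO library. It was 1 of 36 members to rise and none fell, where 3.08% and 1.75% of all 14772 genes did, and 5 members had an unadjusted p below 0.05 (17.7% of all genes). The members' median log2 fold change was 0.03, against -0.00 over all genes. Ldha lay at 891, 832 and 916 CPM beside 813, 742 and 759 CPM in DMSO (0.20 ± 0.09 (adjusted p = 0.267)), and Slc2a1 at 57.3, 52.3 and 61.2 CPM (0.14 ± 0.13 (adjusted p = 0.639)). Hif1a (0.10), Egln1 (0.11), Bnip3 (-0.30) and Gapdh (-0.08) did not pass either, nor did Hk2 (-0.05), Pfkp (-0.09), Pgk1 (0.01), Egln3 (0.08) or Vegfa (0.13). Pkm also rose with KCl in E0771, and it was the 1 member called in both lines for KCl.

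With BMS204352 in AT-3, 2 members rose and none fell, where 3.28% of all genes rose and 2% fell. Vegfa lay at 82.6, 103 and 64.5 CPM in DMSO and 133, 164 and 206 CPM in BMS204352 (1.02 ± 0.26 (adjusted p = 0.0421), 2.03-fold). Pfkp, the platelet-type phosphofructokinase, lay at 196, 228 and 204 CPM and 257, 276 and 268 CPM (0.36 ± 0.08 (adjusted p = 0.0163)). The groups did not overlap for either gene. Both calls depended on single libraries: no member was called without BMS204352 replicate 3, DMSO replicate 1 or DMSO replicate 3, and without DMSO replicate 2 the count was 1. No test was passed by Slc2a1 (log2 fold change 0.22), Hk2 (-0.00), Gapdh (0.05), Pgk1 (0.00), Pkm (0.18), Ldha (0.04), Egln1 (-0.05), Egln3 (-0.47), Bnip3 (-0.60) or Hif1a (-0.06). Across 14 alternative settings the adjusted p of Vegfa rose to 0.217 and that of Pfkp to 0.114. In KCl, where edgeR's quasi-likelihood test called 0 of 36 members for BMS204352 (0.731% of all genes rose and 0.508% fell; DESeq2 called 1 member and 3.45% of all genes, and 4 members and 16.3% of all genes had an unadjusted p below 0.05), the same 2 genes gave 0.95 ± 0.26 (adjusted p = 0.104) and 0.27 ± 0.08 (adjusted p = 0.120). The summed leukocyte markers of the AT-3 BMS204352 libraries ran from 8.43 to 22.5 CPM, beside 4.34 to 5.55 CPM in DMSO. The epithelial list (655 to 688 CPM) and the endothelial list (2.66 to 4.28 CPM) also lay above their DMSO ranges, and the fibroblast list (14.9 to 16.9 CPM) below it. Their part was not tested.

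NS11021 in AT-3 gave higher values for most members, though none passed the test. edgeR's quasi-likelihood test called 0 of 36, where 0.0677% of all genes rose and 0.00677% fell. An unadjusted p below 0.05 was reached by 22 members (7.64% of all genes), and DESeq2's Wald test called 6 (0.474% of all genes), all higher: Hk2, Ldha, Pdk1, Bnip3, Ak4 and Egln1. Fold changes were positive for 30 members and negative for 6, with a median of 0.23 on the log2 scale, against 0.00 over all genes. All 3 NS11021 libraries lay above all 3 DMSO libraries for 20 members (7.87% of all genes).

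Ak4 lay at 4.55, 4.47 and 6.98 CPM in DMSO and 10.2, 22.2 and 18.3 CPM in NS11021 (1.67 ± 0.37 (adjusted p = 0.179)). Bnip3 lay at 4.03, 3.54 and 3.12 CPM and 4.56, 14.4 and 9.05 CPM (1.41 ± 0.40 (adjusted p = 0.375)), and Egln3 at 3.02, 3.15 and 3.71 CPM and 5.29, 13.9 and 9.49 CPM (1.55 ± 0.45 (adjusted p = 0.400)). In each the order was the same, replicate 2 the highest and replicate 1 the nearest to DMSO, and no NS11021 library fell into the DMSO range. Slc16a3, nearly silent in this line, reached 0.906, 3.12 and 1.71 CPM (1.82 ± 0.62 (adjusted p = 0.483)). Ldha, Slc2a1 and Egln1, which are more abundant, kept that order at smaller size. Other abundant members did not, as in Gapdh, Eno1 and Hk1, where replicate 3 was the lowest. Ldha lay at 858, 1135 and 1009 CPM (0.39 ± 0.09 (adjusted p = 0.168)), Slc2a1 at 58.1, 83.3 and 69.8 CPM (0.46 ± 0.12 (adjusted p = 0.306)) and Egln1 at 89.5, 120.3 and 108 CPM beside 84.2, 81.6 and 80.7 CPM in DMSO (0.38 ± 0.08 (adjusted p = 0.0952)). Hif1a did not share it, at 128, 117 and 112 CPM in DMSO and 120.1, 112 and 108 CPM in NS11021 (-0.06 ± 0.07 (adjusted p = 0.896)), and the log2 fold changes of Pkm (0.08), Gapdh (0.13), Pfkp (0.16) and Pgk1 (0.21) were smaller.

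The order of the libraries held for most of the list. Replicate 2 of NS11021 was the highest of its group for 32 of 36 members, against 37.8% of all genes, and replicate 1 the lowest for 24, against 31.7%. In KCl with NS11021, replicate 2 was likewise the highest for 32 members (36.9% of all genes) and replicate 1 the lowest for 24 (32.8%). The coefficient of variation over 3 libraries had a median of 14.7% over the members in NS11021 and 12.7% in KCl with NS11021, against 7.58% and 7.52% over all genes. In the AT-3 DMSO group the members' median was 4.83% and in KCl 5.95%, both below the 8.43% and 8.62% of all genes. In E0771 the NS11021 libraries were close, with a median of 3.79% for the members. A shared order was found in E0771 too. Replicate 3 was the lowest for 28 members in E0771 KCl (32.1% of all genes) and for 24 in E0771 KCl with NS11021 (31.1%). The members' median coefficients of variation in those 2 groups were 4.39% and 3.52%. In AT-3 BMS204352 the members' median was 11.7%, against 12.04% over all genes, and in KCl with BMS204352 it was 7.51%, against 9.12%. The members' median was above that of all genes in the 2 AT-3 groups with NS11021 and below it in the other 10 groups. Members and all genes were not matched for level, on which this coefficient depends.

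Set against the DMSO mean, the members' median ratio was 1.07 in NS11021 replicate 1, 1.36 in replicate 2 and 1.11 in replicate 3, while over all genes it was 0.990, 0.993 and 0.980. Ratios above 1.5 were found for 3, 11 and 7 members (5.94%, 6.72% and 5.63% of all genes). For the 17 HIF1 targets and regulators the medians were 1.10, 1.46 and 1.25, and for the 18 glycolytic enzymes and carriers 1.06, 1.24 and 1.09. The targets stood above the enzymes in every library. With KCl in both groups compared, the members' ratios were 1.03, 1.27 and 1.07. There edgeR's quasi-likelihood test called 0 of 36 (0.0203% of all genes rose and 0% fell), DESeq2 called 0 (0.0948% of all genes), and 8 had an unadjusted p below 0.05 (3.72% of all genes). Fold changes were positive for 32 members, with a median of 0.16 against -0.00 over all genes, and for 8 members all 3 libraries lay above all 3 of KCl (6.12% of all genes). Bnip3, as an example, lay at 3.74, 2.71 and 2.17 CPM in KCl and 3.41, 9.80 and 3.99 CPM in KCl with NS11021.

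**Figure D3:**
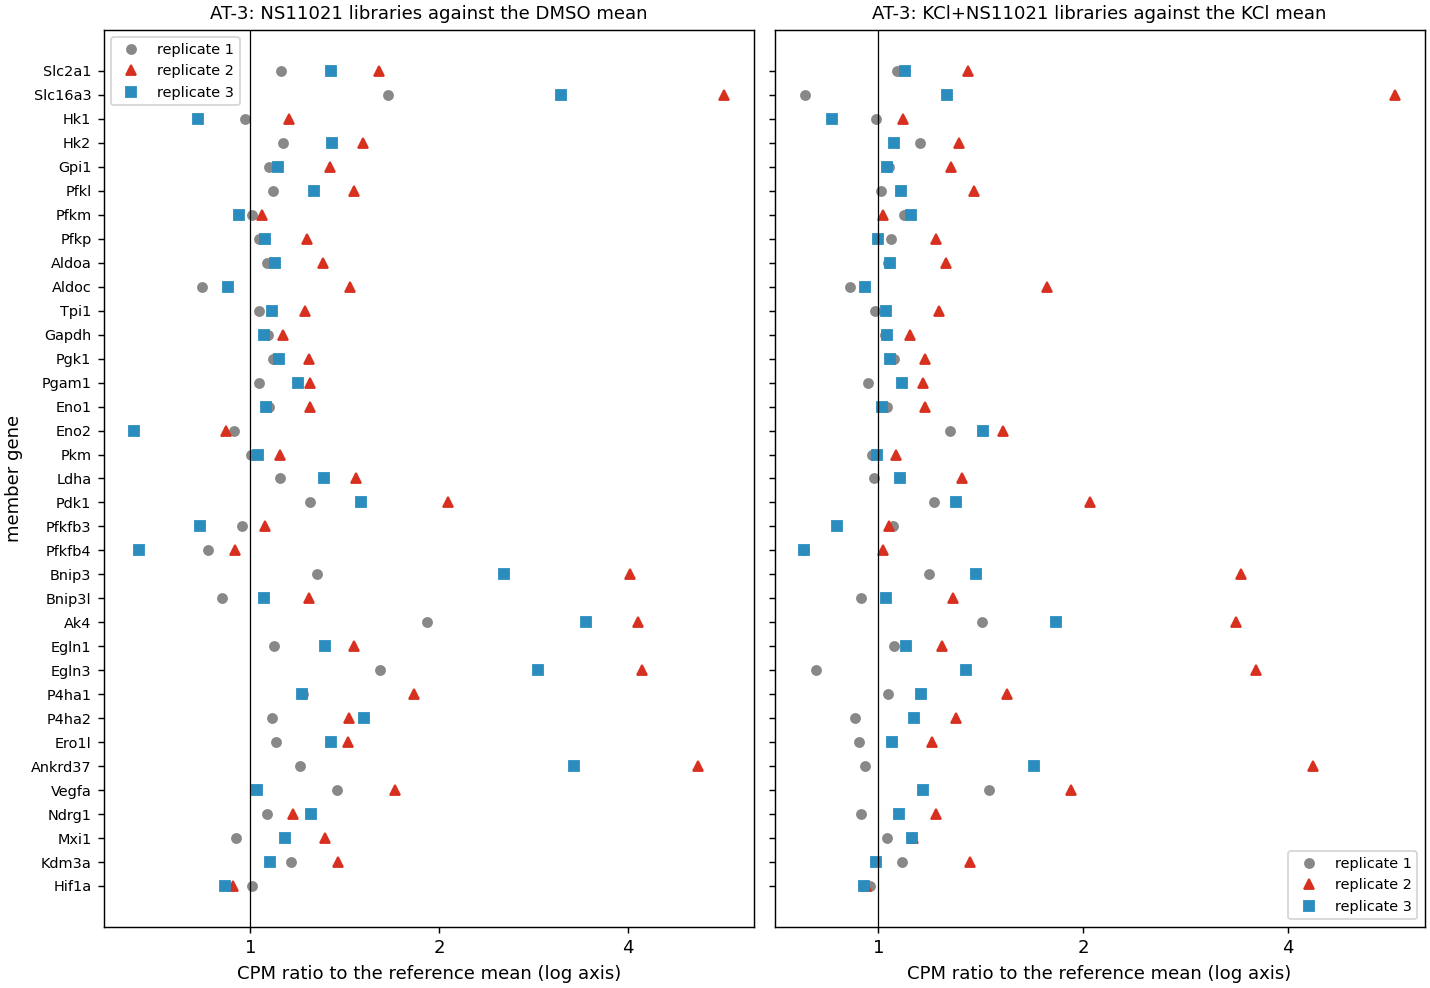
Ratio of each NS11021 library to the DMSO mean, and of each KCl with NS11021 library to the KCl mean, in AT-3, for 35 members; Car9, with few counts, is omitted. Replicate 2 lies above the other libraries for most members in both panels, and Ak4, Bnip3, Egln3, Ankrd37 and Slc16a3 are among the members that spread the widest.

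The NS11021 libraries held 40.8, 44.5 and 49.6 M counts and those of KCl with NS11021 42.2, 38.5 and 45.1 M. The mitochondrial share of counts was 0.562%, 0.490% and 0.536% in the first and 0.549%, 0.595% and 0.551% in the second. Replicate 2 thus had the lowest mitochondrial share of its group in NS11021, and the lowest depth and the highest mitochondrial share in KCl with NS11021; their part in the result was not tested. The summed epithelial markers were 594, 616 and 593 CPM in NS11021. Without NS11021 replicate 2, the members' median log2 fold change was 0.16, with 27 positive. Ak4 then gave 1.43, Bnip3 0.95, Egln3 1.18, Ankrd37 1.19, Slc16a3 1.27, Egln1 0.28, Ldha 0.29 and Hk2 0.32, and none of the 36 passed. Without replicate 1 instead, 2 members passed.

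The NS11021 values thus pointed in opposite directions in the 2 lines, and this difference was tested in 1 fit over all libraries. The effect was lower in E0771 than in AT-3 for 22 members and higher for 1, where 2.5% and 1.49% of all genes passed, and the median log2 difference was -0.44, against -0.01 over all genes. Ak4 differed by -2.36 ± 0.37 (adjusted p = 0.000571), Bnip3 by -2.22 ± 0.42 (adjusted p = 0.00275), Egln1 by -0.88 ± 0.09 (adjusted p = 6.72e-07), Kdm3a by -0.93 ± 0.12 (adjusted p = 1.41e-05) and Ldha by -0.77 ± 0.10 (adjusted p = 4.55e-05). Slc2a1 differed by -0.56 ± 0.16 (adjusted p = 0.0400), although it passed in neither line alone. That call was lost in 14 of 21 alternative settings. Hif1a was the 1 member whose effect was higher in E0771 (0.43 ± 0.08 (adjusted p = 0.00268)). Without AT-3 NS11021 replicate 2, 13 of the 36 members passed; without AT-3 DMSO replicate 2 or E0771 NS11021 replicate 2, 15 did. With replicate 2 of both AT-3 groups with NS11021 left out, an alternative chosen after seeing the data, 17 passed, 1 higher and 16 lower. The share of all genes that passed in these smaller fits is not given, so a loss particular to the members cannot be told from a general one. The 13 members that passed under all 21 alternatives were Ak4, Ankrd37, Bnip3, Egln1, Hif1a, Kdm3a, Ldha, P4ha2, Pfkl, Pgam1, Pgk1, Pkm and Tpi1.

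**Figure D4:**
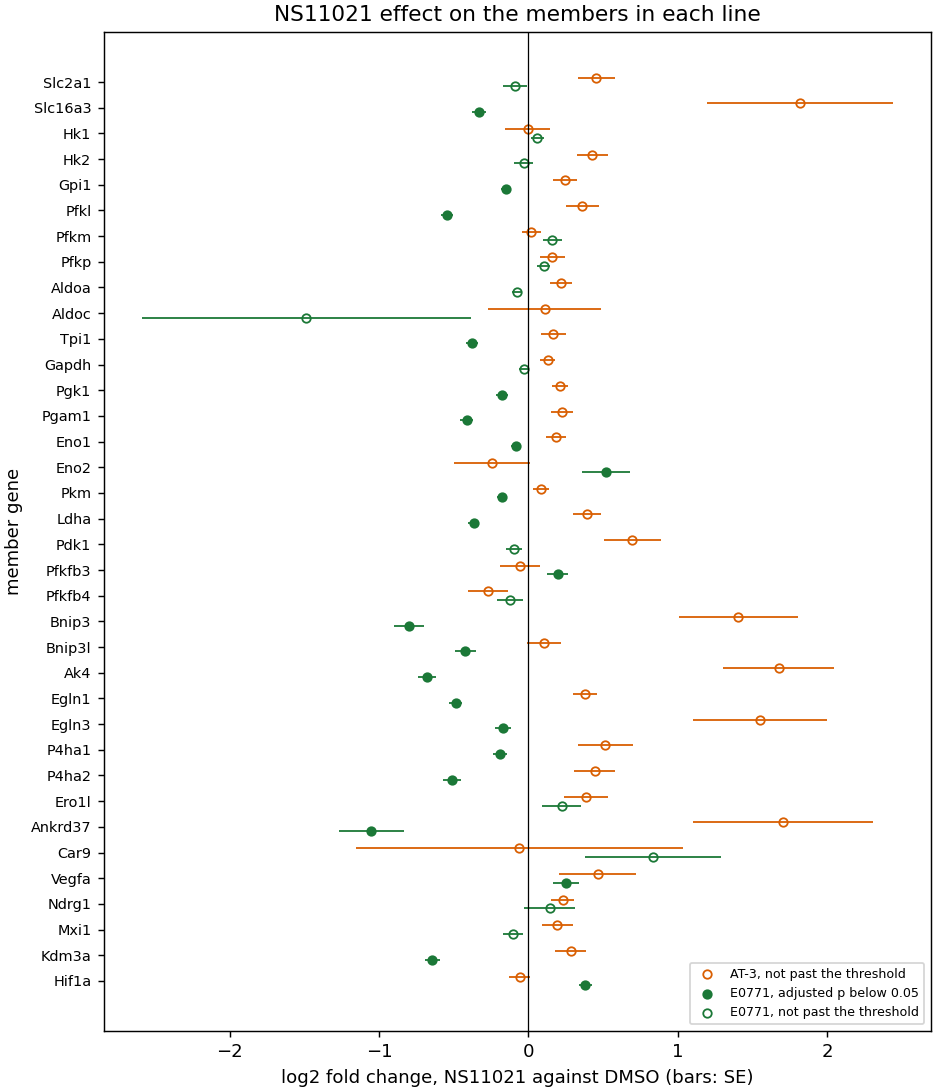
Log2 fold change of NS11021 against DMSO for each member in AT-3 and in E0771, with standard errors; filled points have an adjusted p below 0.05. All called points belong to E0771, and the AT-3 values lie mostly right of 0 with wide errors, up to 1.82 for Slc16a3.

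The KCl response also differed between the lines. It was higher in E0771 for 9 members and lower for none, where 4.11% and 5.02% of all genes passed, and the median log2 difference was 0.26, against -0.01. The 9 were Pfkm (0.61 ± 0.09 (adjusted p = 1.93e-05)), Hif1a (0.53 ± 0.08 (adjusted p = 5.88e-05)), Pfkp (0.56 ± 0.10 (adjusted p = 0.000208)), Slc2a1 (0.69 ± 0.16 (adjusted p = 0.00471)), Ndrg1 (0.79 ± 0.18 (adjusted p = 0.00545)), Tpi1, Egln1, Mxi1 and Gpi1. Pkm, which rose in both lines, gave -0.05 ± 0.06 (adjusted p = 0.717). For BMS204352 the effect was lower in E0771 for Pkm (-0.27 ± 0.06 (adjusted p = 0.00257)) and Pfkp (-0.38 ± 0.10 (adjusted p = 0.0168)) and higher for none, where 3.12% and 1.89% of all genes passed. That count fell to 1 without AT-3 DMSO replicate 1, AT-3 DMSO replicate 3 or E0771 BMS204352 replicate 3.

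In AT-3 no member's response to either compound was called as different with and without KCl: edgeR's quasi-likelihood test and DESeq2 each called 0 of 36 members for either compound (0% of all genes), and 0 members had an unadjusted p below 0.05 for either (2.02% of all genes for NS11021 and 3.61% for BMS204352).

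The make-up of the listed enzyme families varied between groups in both lines. Exon length was that of all annotated exons of a gene joined: 6675 bases for Pfkl, 3340 for Pfkm and 13401 for Pfkp. Shares between genes depend on these lengths. Among the 3 phosphofructokinases, counted per kb, Pfkl made up 60.8% ± 0.67 in E0771 DMSO, 49.3% ± 1.30 in NS11021 and 57.5% ± 0.12 in KCl (SD, n = 3). Hk2 made up 42.6% ± 1.47 of the 2 hexokinases in DMSO and 34.1% ± 0.79 in KCl. Egln3 made up 39.8% ± 0.34 of Egln1 and Egln3 together in DMSO, 32.1% ± 0.66 in KCl, 45.1% ± 0.32 in NS11021 and 41.1% ± 1.27 in KCl with NS11021. In AT-3 Hk2 made up 24.8% ± 2.35 in DMSO, 22.7% ± 1.74 in KCl and 30.7% ± 3.84 in NS11021. In AT-3 Egln3 made up 5.14% ± 0.64 in DMSO and 10.5% ± 3.05 in NS11021, and Pfkl 56.4% ± 0.65 in DMSO, 60.9% ± 2.52 in NS11021 and 50.4% ± 2.85 in BMS204352. The shares of a family sum to a whole, so a fall of one member raises the others. They were not tested.

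**Figure D5:**
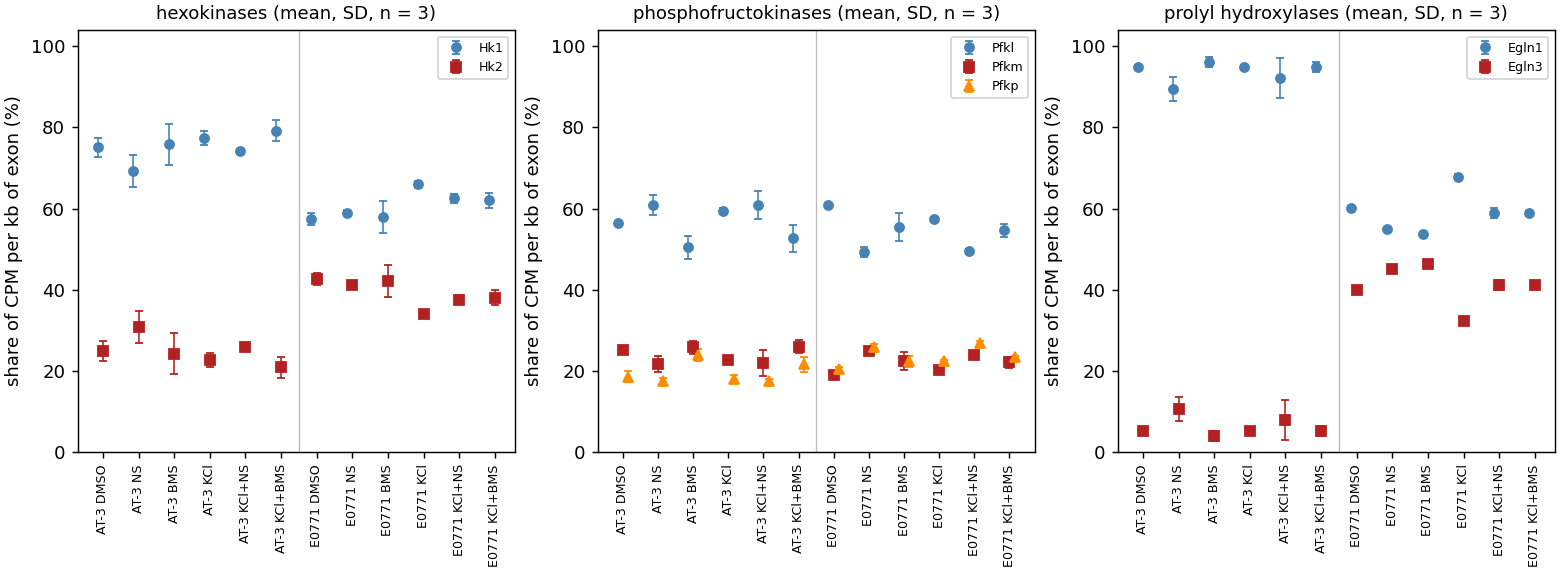
Share of each isoenzyme in the counts per kb of the listed members of its family, as mean and SD of 3 libraries, in the 12 groups. The panels show hexokinases (Hk1 and Hk2), phosphofructokinases (Pfkl, Pfkm and Pfkp) and prolyl hydroxylases (Egln1 and Egln3, without Egln2). In E0771 the Pfkl share is lower in the groups with NS11021 and the Egln3 share is lowest in KCl; in AT-3 the Egln3 share is small and spreads in the groups with NS11021.

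The pathway holds more genes than the list, and 77 others were followed, 67 tested in AT-3 and 57 in E0771. With KCl in E0771, 15 rose and 14 fell, where 17.8% and 18.6% of all genes did. Among those with the smallest adjusted p were Cited2, an inhibitor of HIF1 coactivation (0.92 ± 0.05), Pdp1, a phosphatase that activates pyruvate dehydrogenase (0.63 ± 0.07), and Plod1, a lysyl hydroxylase of collagen (0.52 ± 0.06). With NS11021, 9 rose and 16 fell (12.8% and 13.5% of all genes), led by Wsb1 (-0.60 ± 0.06), Kdm4b (-0.46 ± 0.06), Jmjd6 (-0.47 ± 0.06) and the asparaginyl hydroxylase Hif1an (-0.38 ± 0.05), which blocks HIF1 activity. With BMS204352, 8 rose and 14 fell (11.3% of all genes in each direction), led by Wsb1 (-0.70 ± 0.06) and the lipase inhibitor Angptl4 (-0.98 ± 0.13). The fall of Wsb1 with NS11021 was smaller in KCl, by 0.61 ± 0.09 (adjusted p = 0.000944) on the log2 scale. Against KCl, NS11021 raised 6 and lowered 10 (9.59% and 7.66% of all genes), and BMS204352 raised 8 and lowered 14 (9.85% and 10.1%). Slc2a3, the second glucose carrier GLUT3, ran against Slc2a1 under KCl, with a log2 fold change of -0.50 ± 0.09 (adjusted p = 4.41e-05); it was chosen after its values were seen. In AT-3, KCl raised 4 and lowered 1 (3.08% and 1.75% of all genes), among them the bisphosphoglycerate mutase Bpgm (0.53 ± 0.06), the fructose bisphosphatases Fbp2 (1.42 ± 0.18) and Fbp1 (1.38 ± 0.24), and Arnt, the HIF1 partner subunit (-0.27 ± 0.06). NS11021 changed 0 of 67 there by edgeR's test (0.0677% of all genes rose and 0.00677% fell), with 9 at an unadjusted p below 0.05 (7.64% of all genes). Ldhb, the lactate dehydrogenase of oxidative tissues, lay at 88.9 CPM in AT-3 DMSO and 0.0192 CPM in E0771 DMSO (means of 3 libraries).

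Some counts may include reads of other genes. Exons on the opposite strand, or of another gene, cover 26.4% of Ankrd37, 22.3% of Bnip3 and 10.7% of Pfkm, and the strand used in counting is not given in the sources used here, so those genes are less certain. The copies Aldoart1 and Aldoart2 held 0.357% and 0.285% of the counts of Aldoa, and Eno1b 0.173% of those of Eno1.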

How the data were processed

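The authors deposited 1 table of whole-number read counts per gene for all 36 libraries. Per the labels' protocols, RNA was prepared with Qiagen RNeasy and libraries with the NuGen Universal Plus mRNA kit. Per the submitters' processing notes, reads were aligned to GRCm38 with STAR and counted with featureCounts; the sources used here do not give their versions, the annotation, the strand or the treatment of reads with several matches. The 36 columns were matched to samples by title, and 2 human-form IDs with 6 counts were left out. Among counts from 1 to 10, 84.5% were even, so tests were also run on halved counts. Symbols, exon lengths and promoters came from GRCm38 annotation and RefSeq. The exon length of a gene was that of all its annotated exons joined, not the length of a single transcript.

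All CPM values, fold changes and p-values were computed here from the deposited counts, in R 4.3.3 with the packages edgeR (4.0.16), DESeq2 (1.42.0) and limma (3.58.1). Genes passed filterByExpr (minimum count 10, minimum total 15), scaling was by the trimmed mean of M-values, and edgeR's quasi-likelihood test was run on each line's 18 libraries, or on all 36 to compare the lines. The 18 comparisons each had their own Benjamini-Hochberg adjustment over all genes tested, and the threshold was 0.05. Values after ± are standard errors of log2 fold changes, or SD where said. Precision at these depths (31.2 to 52.6 M counts) is limited by the number of libraries, and standard errors hold counting error and the fitted spread alone.

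The members, lists and tests were chosen with earlier results of these data known. Named were up to 8 called members with the smallest adjusted p and a set of index members in each treatment comparison within a line, and up to 4 other pathway genes, of which 1 is not reported here. Alternatives were DESeq2's test, its size factors, other filters (none, or at least 1 CPM in 3 libraries), a replicate block, halved counts, the compared libraries alone, leaving out the 4 replicate 3 libraries of the BMS204352 groups, and each library in turn.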

Additional observations from a re-analysis of the deposited data

Results flagged for a closer look

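Each value here is a difference between effects that passed edgeR's quasi-likelihood test, either between the lines or between the effects of a compound with and without KCl, on the log2 scale. The NS11021 effect was lower in E0771 than in AT-3 for the lactate exporter Slc16a3 (-2.17) and the glucose carrier Slc2a1 (-0.56), for the enzymes Hk2 (-0.47), Gpi1 (-0.40), Pfkl (-0.91), Aldoa (-0.31), Tpi1 (-0.55), Pgk1 (-0.40), Pgam1 (-0.65), Eno1 (-0.28), Pkm (-0.27) and Ldha (-0.77), and for Pdk1 (-0.80), the kinase that turns pyruvate dehydrogenase off. It was also lower for the HIF1 targets Bnip3 (-2.22), Bnip3l (-0.54), Ak4 (-2.36), Egln1 (-0.88), Egln3 (-1.73), P4ha1 (-0.71), P4ha2 (-0.96), Ankrd37 (-2.77) and Kdm3a (-0.93). Only Hif1a had a higher NS11021 effect in E0771 (0.43). Of these 23, 10 lost the call under at least 1 of 21 alternatives. Slc2a1 lost it in 14, Hk2, Bnip3l and P4ha1 in 12 each, Eno1 in 11 and Aldoa in 10. Pdk1 lost it in 8, Egln3 in 4, Slc16a3 in 3 and Gpi1 in 1.

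The KCl effect was higher in E0771 for Slc2a1 (0.69), Gpi1 (0.32), Pfkm (0.61), Pfkp (0.56), Tpi1 (0.44), Egln1 (0.37), Ndrg1 (0.79), Mxi1 (0.51) and Hif1a (0.53), and of these 9 Gpi1 lost the call under 1 alternative. The BMS204352 effect was lower in E0771 for Pfkp (-0.38) and Pkm (-0.27). Within E0771 the NS11021 effect on Egln3 was higher in KCl (0.44), and the BMS204352 effect on Slc2a1 was lower in KCl (-0.49).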

How the results depend on the processing

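Counts of called members are given here by comparison. For most alternatives, here and above, the share of all genes called is not given. A change particular to the members then cannot be told from one over all genes. No fold change of a member changed sign together with its call under any alternative; over members and settings, 10323 values kept their side of the threshold, 236 lost it and 129 gained it. DESeq2's test gave 6 calls in place of 0 for NS11021 in AT-3, 4 in place of 2 for BMS204352 in AT-3, 1 in place of 0 for BMS204352 added to KCl in AT-3, and 2 in place of 1 for the interaction of KCl and NS11021 in E0771. Without a filter, NS11021 and BMS204352 in AT-3 each gave 1. With only the compared libraries, a smaller fit, KCl in AT-3 gave 4 in place of 1, BMS204352 gave 0 in AT-3 and 9 in place of 17 in E0771, the E0771 interactions gave 4 with NS11021 and 0 with BMS204352, and the differences between lines gave 18 in place of 9 for KCl and 0 for BMS204352. Without the 4 replicate 3 libraries of the BMS204352 groups, AT-3 gave 2 for KCl, 4 for NS11021 and 1 for BMS204352, the E0771 interactions gave 4 with NS11021 and 5 with BMS204352, and the line difference for BMS204352 gave 1. Deviations of same-numbered libraries of compared groups were weakly correlated (0 of 15 pairs in either line over 0.1). Even so, 18 of 18 AT-3 and 13 of 18 E0771 libraries were closest to their own number. A replicate structure was thus present in AT-3 and, for most libraries, in E0771. The main fits held no term for it. A replicate block gave 1 call for NS11021, 4 for BMS204352 and 2 for BMS204352 added to KCl in AT-3. It gave 2 for the E0771 interaction with NS11021. Leaving out 1 library at a time gave 0 to 2 calls for NS11021 and 0 to 4 for BMS204352 in AT-3. In E0771 it gave 22 to 25 for KCl, 17 to 20 for NS11021, 11 to 19 for BMS204352, 13 to 19 for NS11021 added to KCl, 12 to 15 for BMS204352 added to KCl, 0 to 1 for the interaction with NS11021 and 0 to 3 for that with BMS204352. For the differences between lines it gave 9 to 11 for KCl, 13 to 23 for NS11021 and 1 to 3 for BMS204352. Without both AT-3 replicate 2 libraries with NS11021, chosen after seeing the data, that for NS11021 gave 17. The causes of these shifts were not tested beyond the libraries named. Size factors, the filter of 1 CPM in 3 libraries and halved counts left every count within 1.5 times of its main value.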
